A study of Drosophila melanogaster with 3 samples.

Results

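Of 3314 reproducible CG10431 peaks mapped by chromatin immunoprecipitation and sequencing (ChIP-seq) in fly embryos, 606 had annotated transcript starts on both DNA strands within 500 bp of the summit. These 606 peaks, 18.3% of the list (exact binomial 95% interval 17.0 to 19.6), are the subject here. Within that list they were chosen by position alone, from Ensembl transcript starts with transposable element records left out. The list itself holds the pooled candidates of highest signal, so signal entered the choice through it. All samples came from whole Drosophila melanogaster embryos of mixed sex, aged 0 to 12 h, of a single transgenic line that expresses CG10431 with GFP, the green fluorescent protein, fused to its C-terminal end. There was 1 group with 3 biological replicates, so every p-value below rests on these 3 samples only. At 0.25, the smallest value possible, it reflects their common direction and not the size of their spread. The replicates shared 1 control, which is not analysed here, and chromatin had been sonicated to 200 to 800 bp. A free-text label calls the samples input controls, but the other labels and the deposited notes describe immunoprecipitated samples, and they were treated as such.

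A divergent promoter is the short stretch between a pair of neighbouring genes that are transcribed away from each other. Such head-to-head pairs are common in the compact fly genome and often hold broadly expressed housekeeping genes. Proteins that bind the DNA replication-related element (DRE), such as Dref and the boundary factor BEAF-32, are known at many of them. The annotation shows where transcripts can start, but whether both starts of a pair were in use in these embryos was not measured.

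The label "divergent" was checked against the annotation. In 576 of the 606 peaks (95.05%, 93.0 to 96.6) the nearest starts pointed away from each other, which is the head-to-head arrangement. In the other 30 peaks the starts pointed past each other. Whether the annotated transcripts themselves overlap was not checked, because transcript ends were not used. These 30 are called overlapping below, by their nearest starts alone, and a farther start within 500 bp can still point away. The pairs ATPCL/Tmem131 and cav/twin, for example, each held an overlapping peak and a head-to-head one. The 606 peaks lay at 572 distinct pairs of genes, of which 34 pairs held 2 peaks each, so peaks at such pairs share their sequence neighbourhood. In those 34 pairs the summits were 199 to 854 bp apart, with a median of 204 bp. By arm, 134 of the peaks were on 2L, 112 on 2R, 131 on 3L, 167 on 3R, 2 on chromosome 4 and 60 on X.

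Sequences at the pairs that the results turn on are shown here, read from the RefSeq copy of the dm6 assembly, 5′ to 3′ on the plus strand. The first set shows the 7-mer TACATGG, or its reverse complement, in capitals at 3 of the peaks of highest signal. The 7-mer came from an earlier search of these same peaks, so its presence supports nothing by itself. The stretches at mio and cav/twin lie within annotated untranslated regions and are limited to 30 bases around the match.

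CG15386/mio (chr2L:2217304-2217333, plus strand): tcttcttcttgCCATGTAgtgcagtgttta
CG7985/Ssdp (chr3R:18199977-18200102, plus strand): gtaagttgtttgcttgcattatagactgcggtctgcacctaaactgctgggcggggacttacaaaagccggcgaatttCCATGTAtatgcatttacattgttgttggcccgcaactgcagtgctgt
cav/twin (chr3R:24221496-24221525, plus strand): ttgtttttgtaTACATGGtgagcagtcgga

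The next set shows the DRE core TATCGATA in capitals at a pair of the peaks of highest signal that carry it. The stretch at ewg is limited to 30 bases for the same reason.

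CG1622/CG1764 (chrX:13297014-13297081, plus strand): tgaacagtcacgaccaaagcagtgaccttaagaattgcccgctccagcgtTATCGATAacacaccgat
CG3777/ewg (chrX:279548-279577, plus strand): tacatgacaaaTATCGATAtacagcacgcg

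The third set shows whole gaps between the starts of pairs in which the summit lay between them. Capitals mark TATAAA or its reverse complement, the only one of the motifs searched for in these gaps (TACATGG, TATCGATA and TATAAA) that was found in any of them.

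Art3/mRpS10 (chr3R:15229409-15229664, plus strand): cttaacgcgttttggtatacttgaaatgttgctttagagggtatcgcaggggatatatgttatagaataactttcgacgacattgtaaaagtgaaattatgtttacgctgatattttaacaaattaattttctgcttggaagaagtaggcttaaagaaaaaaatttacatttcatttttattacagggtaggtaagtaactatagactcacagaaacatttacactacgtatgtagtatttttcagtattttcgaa
CHMP2B/Tcs5 (chr3L:5139396-5139618, plus strand): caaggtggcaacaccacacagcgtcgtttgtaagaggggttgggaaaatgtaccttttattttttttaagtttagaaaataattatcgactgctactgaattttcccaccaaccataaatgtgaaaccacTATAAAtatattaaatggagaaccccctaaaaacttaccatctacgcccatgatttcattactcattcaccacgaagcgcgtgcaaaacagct
Lon/PIG-F (chr3L:19612200-19612454, plus strand): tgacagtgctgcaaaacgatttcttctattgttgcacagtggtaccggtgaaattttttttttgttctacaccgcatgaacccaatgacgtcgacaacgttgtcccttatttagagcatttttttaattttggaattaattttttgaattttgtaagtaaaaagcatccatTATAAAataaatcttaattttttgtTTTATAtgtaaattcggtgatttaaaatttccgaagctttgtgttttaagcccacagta
CG13390/CG17294 (chr2L:8376798-8377034, plus strand): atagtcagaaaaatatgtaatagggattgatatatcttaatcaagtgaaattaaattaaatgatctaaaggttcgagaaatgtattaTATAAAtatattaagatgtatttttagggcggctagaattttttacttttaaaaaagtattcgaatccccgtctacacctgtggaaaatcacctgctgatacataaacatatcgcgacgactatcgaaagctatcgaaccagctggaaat
CG10747/Pyroxd1 (chr2L:20091349-20091434, plus strand): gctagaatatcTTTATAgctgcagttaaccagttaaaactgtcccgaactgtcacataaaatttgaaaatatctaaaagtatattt

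The last set shows the gaps at a pair of ribosomal protein genes, where the summit lay at the ribosomal protein start and just outside the gap. Capitals again mark TATAAA, which in the RpS27 gap matches on both strands with overlap.

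Nup37/RpS27 (chr3R:25247515-25247657, plus strand): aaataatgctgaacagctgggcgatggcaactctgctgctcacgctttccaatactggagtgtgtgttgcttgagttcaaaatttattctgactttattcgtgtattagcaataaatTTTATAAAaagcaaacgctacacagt
Nelf-E/RpL14 (chr3L:8600880-8601005, plus strand): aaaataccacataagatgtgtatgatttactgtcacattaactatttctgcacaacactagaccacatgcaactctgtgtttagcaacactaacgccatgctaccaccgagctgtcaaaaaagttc

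Summits with starts on both strands entered the reproducible list more often than summits with starts on 1 strand. The authors' pooled candidate list holds 30000 entries, peaks together with background, and an entry was counted as called where it is in the reproducible list selected by the irreproducible discovery rate (IDR). Over all candidates 11.0% were called. Of the 2098 candidates with starts on both strands, 606 or 28.9% (27.0 to 30.9) were called. Of the 7082 with starts on 1 strand, 1195 or 16.9% (16.0 to 17.8) were called, and of the 20820 with no start within 500 bp, 1513 or 7.27% (6.92 to 7.63). The called entries are the pooled candidates of highest signal, so these shares compare how many entries of each class passed 1 signal threshold.

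Each replicate has its own candidate list of 30000 entries, and its 3314 strongest entries were taken as called. In replicates 1, 2 and 3, 30.7%, 29.6% and 28.4% of the entries with starts on both strands were among the strongest. The corresponding shares with starts on 1 strand were 16.0%, 16.7% and 17.4%. The groups of values did not overlap, and the difference was 12.9 ± 1.83 percentage points (SD, n = 3), with the same sign in 3 of 3 replicates. The two-sided exact sign-flip permutation test gave p = 0.25, the smallest value that 3 replicates allow. The median rank of entries with starts on both strands was 6264, 6506 and 6951 in the 3 replicates, against 11295, 11163.5 and 11000.5 with starts on 1 strand (difference -4579 ± 495, exact sign-flip p = 0.25).

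**Figure D1:**
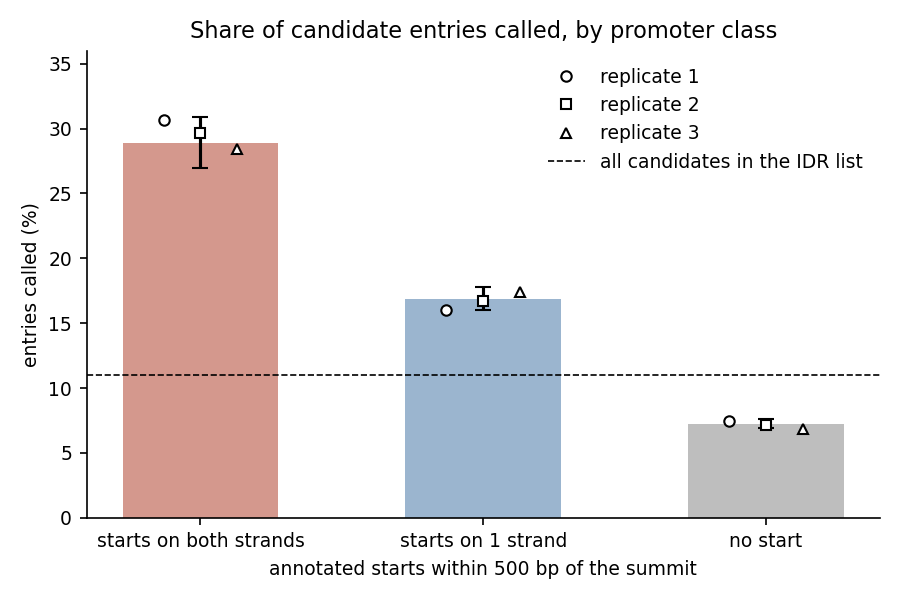
Percent of candidate entries called, by whether annotated starts lie within 500 bp on both strands, on 1 strand or not at all. Bars are the pooled list with exact binomial 95% intervals, symbols are the 3 replicates (share among each replicate's 3314 strongest entries), and the dashed line is the 11.0% of all candidates; the both-strand bar stands at 28.9% and the replicates at 28.4% to 30.7%.

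The difference between the classes depended on the distance from the summit to its nearest start. Within 50 bp of a start, 28.6% of both-strand and 19.0% of 1-strand candidates were called, and over 50 and up to 100 bp away 34.1% and 16.8%. Over 100 and up to 250 bp away the shares were 28.7% and 18.4%. Beyond 250 bp they were 13.8% (8.76 to 20.3) and 14.1% (12.7 to 15.6), so no difference was detectable there in the pooled list. In the replicates the shares from 50 to 100 bp were 33.2% ± 2.10 and 17.4% ± 1.29 (SD, n = 3). Beyond 250 bp they were 16.3%, 15.9% and 14.8% with starts on both strands and 13.7%, 14.6% and 13.4% with starts on 1 strand, so the both-strand share was higher in 3 of 3 replicates there, by at most a few points, and not in the pooled list.

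Among peaks that were called, the both-strand class did not stand out in height. The signal is the authors' peak caller's value, on a scale that no label or note states, and is compared only within a list. Its median was 282.4 in the 606 peaks, 284.5 in the peaks with starts on 1 strand and 276.5 in the other peaks. Both-strand peaks made up 19.3% of the 300 peaks of highest signal and 16.7% of the lowest rank class (ranks 2487 to 3314), with 16.6% to 19.7% in the classes between. Summits recurred within 250 bp among the 3314 strongest entries of all 3 replicates for 374 of the 606 peaks (61.7%, 57.7 to 65.6), against 61.9% of the peaks with starts on 1 strand. A further 171 recurred in 2 replicates and 60 in 1. The list was called on reads of these same replicates, so recurrence is not independent of the call. Each summit was matched to the strongest replicate entry within 250 bp, so 1 entry could count for 2 neighbouring peaks. At cav/twin, for example, both peaks were matched to the same entries, ranked 24, 17 and 21 in replicates 1, 2 and 3. Recurrence of the weaker peak at such pairs can therefore be overstated.

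Only the Sin3A/lncRNA:CR30055 peak, at the gene of a histone deacetylase scaffold, recurred among the strongest entries of no replicate. Its nearest candidate entry ranked 4097 in replicate 2, and replicates 1 and 3 had none within 250 bp. The same pair held another, stronger peak, with a pooled signal of 351.6 at rank 1057, which recurred in all 3 replicates. Replicate 1 also lacked a candidate at EMC5/Swip-1, asRNA:CR45135/lola, CG8490/tRNA:His-GTG-1-3, CG1233/Cdc5 and Nup205/pico. Replicate 2 lacked one at CG13807/oxt, CG9300/Ltn1, CG7745/Fpps and Uba3/tum, and replicate 3 at Sf3b6/Tnpo, eIF3h/senju, Cdk12/SAK and CG3337/Nelf-A. The pooled signals of these peaks ranged from 207.1, at rank 2790, to 365.5, at rank 998.

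The peak of highest signal lay at Sbds/velo, where Sbds acts in ribosome maturation and velo encodes a SUMO protease. Its signal was 28471 in the pooled list and 7257, 12013 and 9347 in replicates 1, 2 and 3, and it ranked 2 in every list. The summit was outside the pair, 247 bp from the velo start and 408 bp from the Sbds start. CG15386/mio followed with 7067, and 1873, 3100 and 2138 in the replicates; mio encodes a subunit of the GATOR2 nutrient-sensing complex. There the starts were 44 bp apart and the summit lay 15 bp inside the mio transcript. CG7985/Ssdp had a signal of 5704, and 1325, 2386 and 1972 in the replicates, with the summit 145 bp from the nearer start. Ssdp encodes a cofactor of LIM-homeodomain protein complexes. These peaks kept ranks 2 to 7 in each replicate.

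The other peaks among the 20 of highest signal ranged from 3772 down to 1076. They included ATPCL/Tmem131, with the gene of ATP citrate lyase, and Not1/Nt5c, with the gene of the CCR4-NOT scaffold. At both of these peaks the nearest starts were overlapping. Another was cav/twin, pairing a telomere-capping protein with the CCR4 deadenylase, with a signal of 2517 and a summit 3 bp from the cav start. Snr1/mRpL44 (1958) holds the gene of a Brahma complex subunit, and Art3/mRpS10 (1723) that of an arginine methyltransferase. Gfat2/Moca-cyp, Pal1/Pdrg1, CG11309/CG7632, Nup37/RpS27, CHMP2B/Tcs5, Lon/PIG-F, CG9147/Fbw5, CG18428/eIF4EHP, CG5611/Mtl, Chro/Ssl1, CenG1A/mRpS23 and CG13390/CG17294 completed the 20. All 20 recurred in 3 of 3 replicates, and their lowest position in any replicate was rank 178. In 10 of the 20 the summit lay between the starts.

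The starts of head-to-head peaks were a median of 281 bp apart, with a range of 8 to 785 bp. Called shares were highest for pairs of intermediate spacing. Pairs were put in spacing classes with upper limits of 100, 200, 300, 500 and 1000 bp. Of head-to-head candidates in the 200 to 300 bp class, 36.4% (32.1 to 40.9) were called. The share was 26.6% (21.7 to 31.9) up to 100 bp, 28.5% from 100 to 200 bp, 30.03% from 300 to 500 bp and 20.9% (15.9 to 26.6) beyond 500 bp. In the replicates the share in the 200 to 300 bp class was 37.7%, 36.3% and 32.0%, above the 24.1%, 25.7% and 28.0% up to 100 bp and the 21.6%, 24.8% and 23.9% beyond 500 bp. The replicate values from 100 to 200 bp (24.2% to 33.9%) and from 300 to 500 bp (31.4% to 33.0%) overlapped those of the 200 to 300 bp class.

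**Figure D2:**
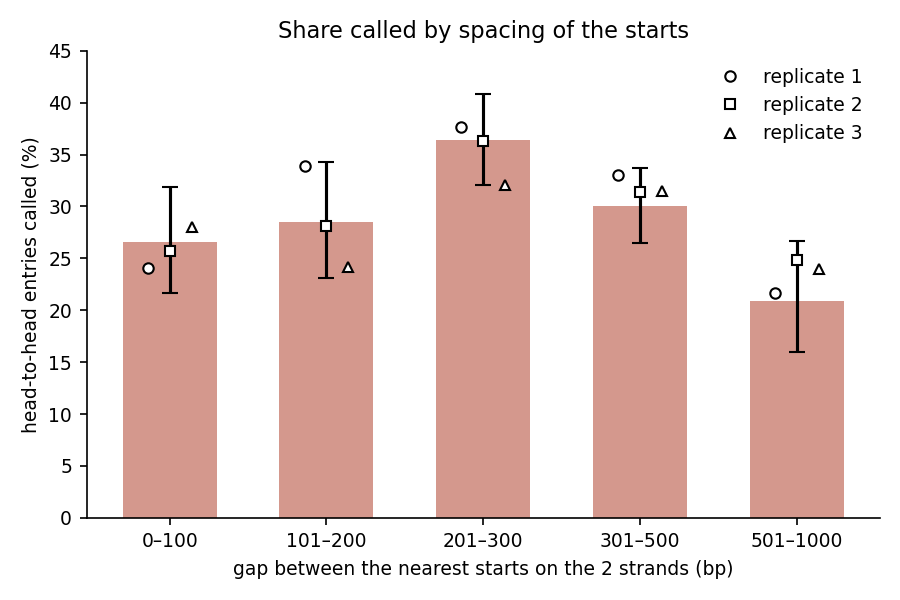
Percent of head-to-head candidate entries called, by the gap in bp between the nearest starts on both strands. Bars are the pooled list with exact binomial 95% intervals and symbols the 3 replicates; the 200 to 300 bp bar is the highest, at 36.4%.

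Seen from the annotation, 562 of 3113 neighbouring head-to-head pairs with starts at most 1000 bp apart (18.1%, 16.7 to 19.5) held a called summit within 500 bp of both starts. A candidate summit was present at 1569 of them, so 35.8% of the pairs with a candidate held a called one. The called share of all pairs was 22.0% up to 100 bp, 16.2% from 100 to 200 bp, 26.3% from 200 to 300 bp and 23.1% from 300 to 500 bp. It was 5.76% beyond 500 bp, where few positions are within 500 bp of both starts. The stretch within 500 bp of both starts shrinks with the gap over all classes, so they are not on equal terms. Counting summits between the starts or within 100 bp of them, a stretch that grows with the gap, gave 15.9%, 13.6%, 25.6%, 23.2% and 17.2%, in the same order. The class up to 100 bp was then below that beyond 500 bp.

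Called summits lay between the starts more often than summits that were not called. This held for 446 of the 576 head-to-head peaks (77.4%, 73.8 to 80.8) and for 65.6% (63.0 to 68.2) of head-to-head candidates outside the reproducible list. In replicates 1, 2 and 3 the shares were 76.9%, 74.6% and 74.2% among the strongest entries, against 68.0%, 63.1% and 60.7% among the rest, and the groups of values did not overlap. With starts 200 to 300 bp apart, 83.4% of the called and 63.7% of the other summits lay between them, and in the replicates 81.4% ± 0.627 and 63.8% ± 3.27 (SD, n = 3). With starts over 500 bp apart every summit is between them by the 500 bp rule. Among the 30 overlapping peaks only 8 had the summit between the starts.

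Where the starts were 200 to 500 bp apart, called summits lay in the middle of the gap more often than summits that were not called. Of the 146 peaks with starts 200 to 300 bp apart and the summit between them, 63 or 43.2% (35.0 to 51.6) lay in the middle of the gap when it is cut into 3 equal parts. The share was 19.5% (14.2 to 25.8) of the 195 summits that were not called. In the replicates it was 39.1%, 48.6% and 33.6% among the strongest entries and 28.6%, 21.5% and 27.1% among the rest. From 300 to 500 bp the pooled shares were 38.6% and 27.5%. From 100 to 200 bp they were 32.6% and 34.2%, and the median distance from the midpoint was 40 bp for called and 34.5 bp for other summits. Beyond 500 bp the pooled counts were 36 of 50 called and 113 of 189 other summits, and the replicates gave 59.9% ± 0.899 and 59.1% ± 4.76, which differed by less than their spread.

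**Figure D3:**
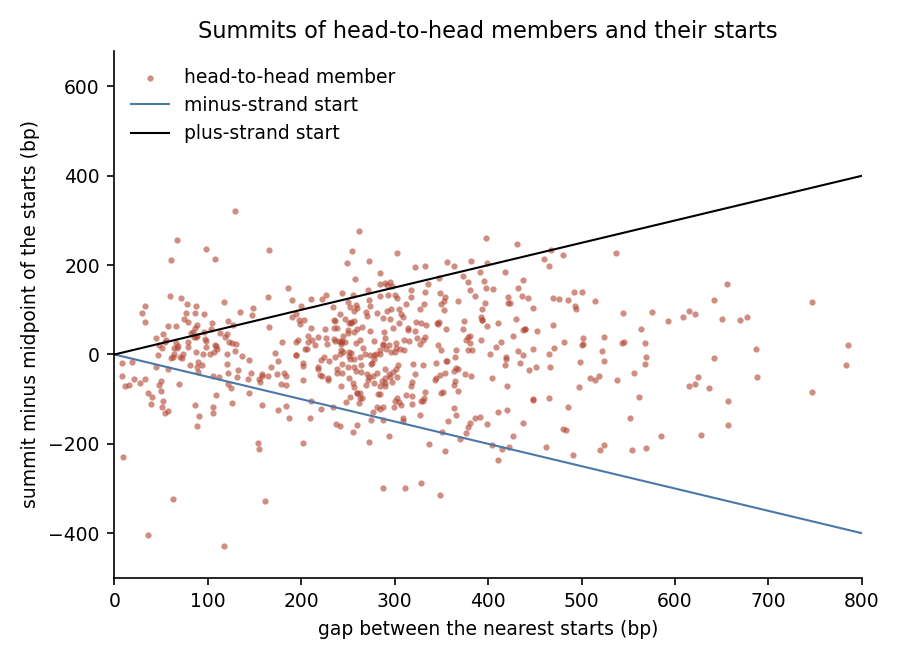
Summit position of the 576 head-to-head peaks: the horizontal axis is the gap in bp between the nearest starts and the vertical axis the distance in bp of the summit from their midpoint. Lines mark the starts on each strand, and points between the lines are the 446 peaks with the summit between the starts.

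Most pairs joined protein-coding genes. Both nearest genes were protein-coding at 541 of the 606 peaks, and 30.8% (28.7 to 33.0) of such candidates were called. A protein-coding gene faced a non-coding one at 62 peaks, 56 of them with an ncRNA, 4 with a tRNA and 2 with a pseudogene, and 20.4% (16.0 to 25.4) of such candidates were called. Both genes were non-coding at 3 peaks, or 7.69% of 39 candidates. The windows of 561 peaks held starts of exactly 2 genes. The most starts, 6, were found at RpL28/eIF1, and the most genes, 10, at the trans-spliced pre-mod(mdg4) exons annotated as separate genes.

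Cytosolic ribosomal protein genes held the most peaks of the protein-coding lists examined, 33 at 31 genes. Of 43 both-strand candidates with such a gene, 76.7% (61.4 to 88.2) were called, but so were 74.5% (61.0 to 85.3) of the 55 candidates with starts on 1 strand whose nearest start was one. These intervals overlap over most of their length. The replicates gave 75.6%, 76.1% and 83.3% for both strands and 66.7%, 73.7% and 68.9% for 1 strand. The median signal of the 33 peaks was 536.2, above the 282.4 of all 606, and 31 of them recurred in all 3 replicates.

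At these pairs the summit sat at the ribosomal protein start and not at its partner's. It was nearer to the ribosomal protein start in 30 of 33 peaks (90.9%, 75.7 to 98.1), at a median of 17 bp from it and 261 bp from the partner. In the replicates the share was 94.1%, 91.4% and 91.4% (92.3% ± 1.55, SD, n = 3). Closeness to the ribosomal protein start was not particular to both-strand peaks. The 41 called 1-strand peaks nearest to such a start lay a median of 12 bp from it. Within 50 bp of it were 90.2% of these 41 and 81.8% of the 33 peaks. Nup37/RpS27, which joins a nuclear pore gene to a small subunit gene, had its summit 15 bp from the RpS27 start and 159 bp from the Nup37 start, with signals of 385.1, 472.0 and 394.4 in replicates 1, 2 and 3. Nelf-E/RpL14 had it 3 bp from RpL14 and 130 bp from Nelf-E, the gene of a subunit of the negative elongation factor, with 246.2, 326.0 and 237.5. Ripalpha/RpL7 had it 38 bp from RpL7 and 88 bp from the other start. The exceptions included a second peak at RpL28/eIF1, where the stronger peak lay at the ribosomal protein start, and Axn/RpS28a, with the summit 7 bp from the start of Axn, a Wnt pathway gene.

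**Figure D4:**
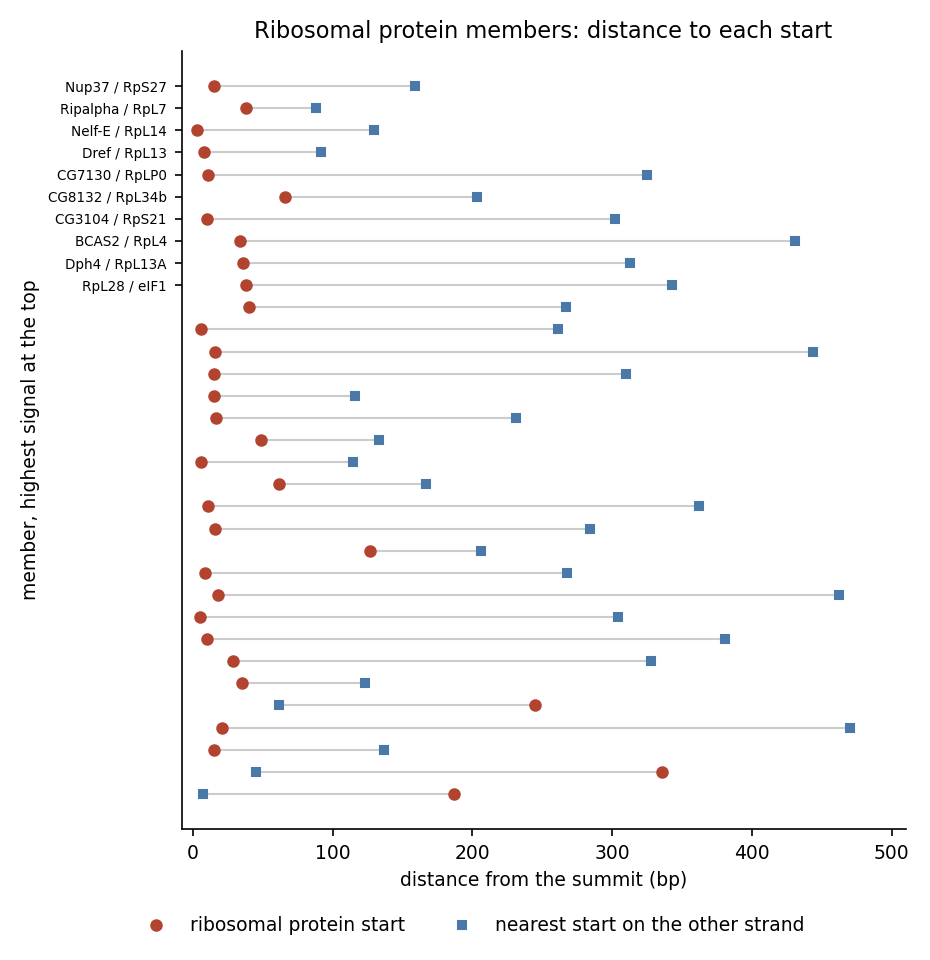
Distance in bp from the summit to the ribosomal protein start (circles) and to the nearest start on the other strand (squares) for the 33 peaks with a cytosolic ribosomal protein gene, ordered by signal, with the 10 of highest signal named. In 30 of the 33 the circle is nearer 0.

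At mitochondrial ribosomal protein genes 7 of 17 peaks were nearer to the listed start (41.2%, 18.4 to 67.1), at aminoacyl-tRNA synthetase genes 5 of 12, and at RNA polymerase II, TFIID and Mediator genes 3 of 12. The counts were 5 of 9 for translation factors (21.2 to 86.3%) and 4 of 7 for the spliceosome (18.4 to 90.1%). The difference between the lists was not tested. Against the 28.9% of all both-strand candidates, the called share was 35.4% of 48 (22.2 to 50.5) for mitochondrial ribosomal proteins. Snr1/mRpL44, Art3/mRpS10 and CenG1A/mRpS23 were the highest in signal there. For synthetases, led by ArgRS-m/CG17816, it was 12 of 24 (29.1 to 70.9%), with the 12 peaks at 9 genes. Translation factors had 9 of 20 (23.1 to 68.5%), with the 9 peaks at 7 genes. They were led by CG18428/eIF4EHP, the gene of a cap-binding translational repressor. The polymerase II list had 44.4% of 27 (25.5 to 64.7), led by 140up/Polr2B. The intervals of the mitochondrial, translation factor and polymerase II lists include 28.9%. The share was 29.2% of 24 for the spliceosome, led by PIG-Q/U2af50, which is close to that of all both-strand candidates. Other lists were respiratory chain genes (21.9% of 32, led by Fum1/ND-ASHI), replication genes (2 of 9, RnrS and Mcm2/RPA1) and the proteasome (16.7% of 24). Hox and segmentation genes had 2 both-strand candidates, neither of them called, and 0 of 31 with starts on 1 strand.

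Genes of insulator and architectural proteins had 7 of 11 both-strand candidates called (63.6%, 30.8 to 89.1). They were Chro (1135), which encodes Chromator, Cp190 (924.2), Dref (792.3, paired with RpL13), M1BP (460.5), pita (455.6), BEAF-32 (326.1) and su(Hw) (214.1). The first 5 recurred in all 3 replicates and BEAF-32 and su(Hw) in 2. Of all both-strand candidates 28.9% were called, and of 1-strand candidates nearest to a gene of this list 1 of 5. The summit was nearer to the listed start in 3 of the 7 peaks. The Dref peak, also counted with the ribosomal protein genes, lay 8 bp from the RpL13 start and 92 bp from the Dref start. The counts are small.

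Chromosome X differed from the autosomal arms. Of its 342 both-strand candidates 17.5% (13.7 to 22.0) were called, against 31.3% (29.1 to 33.5) of the 1739 on 2L, 2R, 3L and 3R. For candidates with starts on 1 strand the shares were 15.4% and 17.1%. In replicates 1, 2 and 3 the both-strand share on X was 20.4%, 18.9% and 16.6%, and on the autosomal arms 32.7%, 31.8% and 30.8%. The excess of both-strand over 1-strand shares was 3.70 ± 1.90 points on X and 14.7 ± 1.86 on the autosomal arms, a difference of -11.0 ± 0.914 points with the same sign in 3 of 3 replicates (exact sign-flip p = 0.25, the smallest possible). Male and female embryos were mixed, and the part of X copy number in this difference was not tested.

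**Figure D5:**
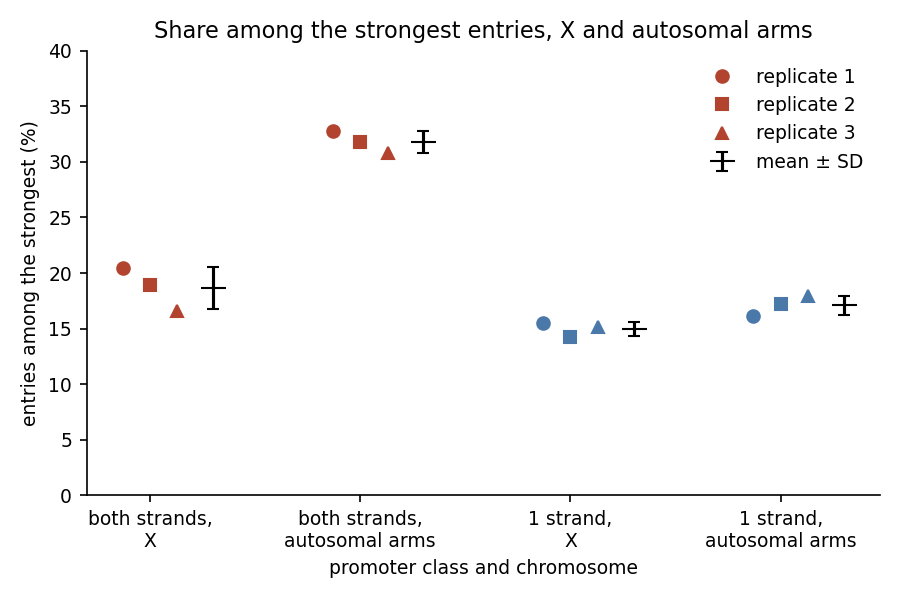
Percent of entries among each replicate's 3314 strongest, for both-strand and 1-strand promoter entries on X and on the autosomal arms 2L, 2R, 3L and 3R. Symbols are replicates, bars mean ± SD; both-strand entries reach 16.6% to 20.4% on X and 30.8% to 32.7% on the autosomal arms.

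Motifs were counted on both strands in windows that reach 100 bp to each side of the summit. The DRE core TATCGATA, which holds the shorter CGATA, was in 10.7% of the 606 peaks (8.38 to 13.5), 3.01% of peaks with starts on 1 strand, and 1.76% of all candidates. Both-strand candidates outside the list had it in 10.2% (8.70 to 11.8), and this interval overlaps that of the called peaks. In the replicates it was in 10.4% ± 0.791 of the strongest both-strand entries, 9.19% ± 0.913 of the other both-strand entries and 3.07% ± 0.185 of the strongest 1-strand entries (SD, n = 3). None of the 30 overlapping peaks had it, which with 0 of 30 allows a share of up to 11.6%. The highest in signal were mio, CG1622/CG1764 and CG3777/ewg, the last with the gene of the transcription factor ewg. CGATA alone was in 39.4% of the peaks and in 43.2% of both-strand candidates outside the list.

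TATAAA was in 41.4% of the peaks (37.5 to 45.5), 33.1% (30.7 to 35.6) of both-strand candidates outside the list and 27.9% of all candidates. The replicates gave 40.8% ± 1.80 among the strongest and 32.8% ± 0.848 among the other both-strand entries. The windows of the peaks were also poorer in G and C, with 35.6% against 38.2% outside the list and 39.7% in peaks with starts on 1 strand, and the part of base composition in the TATAAA share was not tested. The core promoter element Motif 7 was in 12.7% (10.2 to 15.6) of the peaks, 9.65% (8.20 to 11.3) of both-strand candidates outside the list, 5.77% of 1-strand peaks and 2.85% of all candidates. The GAGA factor motif GAGAG was in 17.2% of the peaks (14.2 to 20.4), 33.2% of 1-strand peaks and 25.6% of all candidates. Both-strand candidates outside the list had it in 18.8% (16.9 to 20.9), so the low share was that of both-strand entries whether or not they were called.

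The 7-mer TACATGG was more frequent at the highest signals than in the peaks at large. It came from an earlier search of these same peaks, so its frequencies are a description and not independent support. The 7-mer was in 20 of 606 peaks (3.30%, 2.03 to 5.05), against 5.27% of peaks with starts on 1 strand, 11.4% of peaks away from starts, and 3.12% of all candidates. Both-strand candidates outside the list had it in 1.54% (0.980 to 2.30), and in the replicates it was in 3.00% to 3.77% of the strongest and 1.40% to 1.60% of the other both-strand entries. Of the 10 both-strand peaks of highest signal 7 held it, namely CG15386/mio, CG7985/Ssdp, ATPCL/Tmem131, cav/twin, Snr1/mRpL44, Gfat2/Moca-cyp and Not1/Nt5c, and none of the next 10 did. Among both-strand peaks within the 300 highest ranks of the whole list it was in 9 of 58 (15.5%, 7.35 to 27.4), and in 1.26% to 2.45% in the classes of lower rank. Within the same 300 ranks it was in 16.2% of peaks with starts on 1 strand and 30.4% of peaks away from starts. The median signal of the 20 peaks with it was 646.6 and that of the others 280.4, and 90.0% of the 20 recurred in all 3 replicates. Sbds/velo, the highest peak, had neither the 7-mer nor the DRE core in its window.

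The peaks next to the 500 bp limit are given as a description. The nearest peaks inside were Mpc1/CG42613, with the farther start at 495 bp and a signal of 229.9, and Dyrk2/lncRNA:CR44727, at 494 bp with 233.4. Just outside were CG44094/stumps, at 502 bp with 221.3, and lncRNA:CR44814/RpL12, at 503 bp with 449.4.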

How the data were processed

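Peak lists were used, not reads. The authors deposited 1 candidate list per replicate, 1 from the pooled replicates and 1 list of pooled entries that passed IDR, per the file notes, on dm6. Aligner and peak caller: not given in the sources used here. Read depth is unknown. The authors deposited a signal for each entry, on an unstated scale, a −log10 q-value, which was not used for any test, and the offset of the summit from the entry's start.

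Transcript starts came from Ensembl release 115 (18358 genes, 23779 distinct starts). A summit was assigned by the nearest start on each strand within 500 bp. Intervals are exact (Clopper-Pearson) binomial 95% intervals that cover counting error over entries only. The 3 replicates were compared by two-sided exact sign-flip permutation tests. No test was run across peaks. The members, gene lists and motifs were chosen with earlier results of these data known. Named are the nearest genes of the 20 peaks of highest signal, up to 3 peaks per gene list, those at the 500 bp limit, up to 3 per orientation, motif and short gap, those with the most starts, and those missing from a replicate. No sequence on 2R is shown, and some peaks that this rule names are not reported here. The assignment of starts and the matching of summits were tested on simulated data. Python 3.11.15, NumPy 2.4.6, pandas 2.3.3, SciPy 1.17.1 and matplotlib 3.10.9 were used. Other windows, start sets, thresholds and matching rules were tried.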

Additional observations from a re-analysis of the deposited data

How the results depend on the processing

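No paired analysis was possible because the study has 1 group, and no second group shares its replicate numbers; promoter classes were compared within each replicate. Of 84 values recomputed under other settings, none changed its direction among differences with a replicate test, and 41 were close to the reported value (a count within 1.5 times it, a tested difference of the same direction, or another value within the replicate spread or counting interval); the cause of the moves below was not tested, beyond fewer or more entries being counted. With a 250 bp window there were 371 peaks, 36.6% of both-strand candidates were called, the excess over 1-strand candidates was 17.5 points, the median signal difference (-2.09 in the reported setting, on the authors' signal scale) was 5.34, and X lay at -21.5 points from the autosomal arms. With 1000 bp the called share was 23.5%, the excess 8.95 and the X difference -8.18. With the list cut at its middle rank there were 309 peaks, a share of 14.7%, an excess of 6.04, an X difference of -9.72, and 96.8% of ribosomal protein peaks at the ribosomal protein side. Since the pooled calls use all 3 replicates, setting a replicate aside could only keep the pooled peaks that recur in both others. That filter can only lower counts and the called shares of candidates, while shares among the kept peaks can move either way. It left 416 to 446 peaks, with shares of 19.8% to 21.3%, excesses of 8.10 to 9.28, X differences of -12.5 to -11.3, 93.8% to 96.8% for the ribosomal protein side and 78.4% to 79.2% of summits between the starts. With the nearest start within 250 bp the signal difference was 4.72, and with the signal of replicates 1 and 3 it was -0.299 and -0.304. The difference between classes per replicate, 12.9 points, was 6.08 with each replicate's list cut at the middle rank and 17.7 with the 6628 strongest entries. Recurrence in all 3 replicates was 52.0% within 100 bp and 97.7% with all candidates. It was 34.8% with each replicate's list, but not the list of peaks, cut at the middle rank, a cut that can only lower this share. With gene 5′ ends 92.7% of peaks were head-to-head, the median gap was 274.5 bp and 73.8% of summits lay between the starts. With protein-coding genes 96.7% were head-to-head and the X difference was -15.2. In the peaks above their own median signal 79.3% lay between the starts. TATCGATA was in 6.11% of windows reaching 50 bp and 17.7% of windows reaching 200 bp to each side, and TACATGG in 5.61% of the latter. Annotated pairs with a called summit were 19.5% for summits between or within 100 bp of the starts, which also admits pairs of wide spacing, and 20.5% for protein-coding pairs. The alternatives for X, for the ribosomal protein side, for the middle of the gap and for the rank difference without each replicate were chosen after seeing the data. Read depth is unknown, so shares of entries cannot be tied to sequencing depth, and 3 replicates cannot give a p below 0.25.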
